A study of Mus musculus with 6 samples.

Results

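The genes described here are the sirtuins Sirt1 to Sirt7, the NAD salvage enzymes Nampt and Nmnat1, and Ccar2, an inhibitor of SIRT1. They were chosen by name, 10 of the 22180 genes that could be tested, and 1 transcript cluster (the set of array probes assigned to a gene) stands for each. RNA came from the whole pancreas of 3 Pdx1Cre control mice, which carried Cre and intact Sirt1, and 3 Pdx1Cre;Sirt1ex4F/F mice, called Sirt1-deficient, which carried Cre and floxed Sirt1 alleles. All were males of 6 months, and each pancreas was hybridized to its own GeneChip Mouse Gene array. Cre was driven by a fragment of the Pdx1 promoter, which is mosaic in the exocrine tissue according to the study, so a Sirt1-deficient pancreas can also hold cells with an intact gene. The Pdx1Cre and Sirt1ex4 stocks differed in strain background, and the latter was of mixed origin. The sources used here do not say whether the mice of both genotypes were littermates. Values are log2 expression levels, so that a step of 1 is a 2-fold change, and differences are given as Sirt1-deficient minus control.

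Sirtuins are enzymes that use NAD+ to remove acetyl or other acyl groups from proteins, and they release nicotinamide, which in turn inhibits them. NAMPT converts nicotinamide to nicotinamide mononucleotide and NMNAT enzymes complete its return to NAD+, so that the salvage pathway supplies the cosubstrate of the sirtuins. SIRT1, SIRT6 and SIRT7 are mainly nuclear, SIRT2 is mainly cytosolic, and SIRT3, SIRT4 and SIRT5 are mitochondrial. In the pancreas, SIRT1 is best known for its part in glucose-stimulated insulin secretion. The comparison asked whether another sirtuin, or the NAD supply, differed at the transcript level where Sirt1 was targeted.

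None of the 10 genes passed at the study's threshold, an unadjusted p under 0.01 from limma, where 1.63% of all genes tested did. Of the 10, 0 were higher and 0 lower, while 0.739% of all genes were higher and 0.888% lower. At an unadjusted p under 0.05 there was 1, Sirt4, where 6.66% of all genes passed. None passed at a Benjamini-Hochberg adjusted p under 0.05, and the smallest adjusted p was 0.676. In 0 of the 10 were the groups free of overlap, compared with 11.7% of all genes. The median difference of the 10 genes was -0.016 on the log2 scale and that of all genes was -0.017. Of the 10 differences, 4 were positive and 6 negative. The 95% intervals of 9 of them included 0, each interval being that of a single gene without adjustment.

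**Figure D1:**
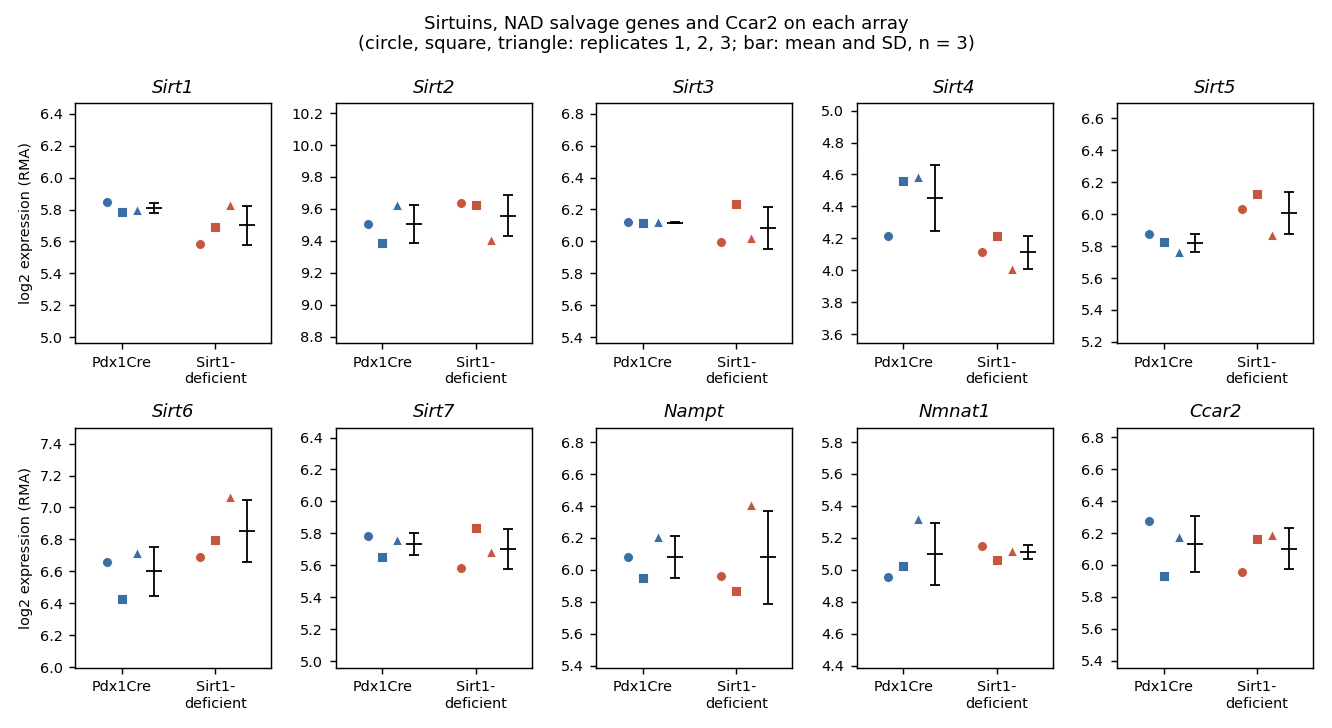
Log2 expression (vertical axes, RMA values; each panel has its own range) of the 10 genes in each Pdx1Cre and Sirt1-deficient pancreas, 1 point per array, with the group mean and SD (n = 3). The groups overlapped for every gene; for Sirt4 the overlap was the control pancreas at 4.21, and for Sirt1 it was the Sirt1-deficient pancreas at 5.83.

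Sirt1 itself read 5.84, 5.78 and 5.80 in controls, against 5.59, 5.69 and 5.83 with Sirt1 deficiency. The first and second Sirt1-deficient pancreata lay below all controls, and the third lay among them. The difference was -0.11 (95% interval -0.35 to 0.13, limma p = 0.343, and p = 0.3 in a 2-sided exact permutation test). With each array left out in turn it ranged from -0.17 (without the Sirt1-deficient pancreas 3) to -0.049 (without the Sirt1-deficient pancreas 1) and never passed. The cluster covers the gene as a whole and not exon 4 alone, which encodes part of the catalytic domain and which Cre removes, so this level does not check the deletion. The study itself reported less Sirt1 transcript by RT-qPCR in total pancreas and in isolated islets of Sirt1-deficient mice. It also reported a SIRT1 protein of lower molecular weight in total pancreas, by western blot. In whole pancreas, fewer cells with a transcript and less transcript per cell cannot be told apart. The interval allows a level between 0.79 and 1.10 times that of the controls.

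The floxed allele leaves the Sirt1 promoter in place. It is printed here with that of Sirt4, the member with the largest difference, from the RefSeq table of assembly GRCm38.p6, as the 250 bases before and 50 bases after the transcript start, 5′ to 3′ along the gene. Capitals mark E-boxes (CACGTG) and GC boxes (GGGCGG, or CCGCCC on the other strand).
Sirt1, chr10:63338986-63339285, minus strand: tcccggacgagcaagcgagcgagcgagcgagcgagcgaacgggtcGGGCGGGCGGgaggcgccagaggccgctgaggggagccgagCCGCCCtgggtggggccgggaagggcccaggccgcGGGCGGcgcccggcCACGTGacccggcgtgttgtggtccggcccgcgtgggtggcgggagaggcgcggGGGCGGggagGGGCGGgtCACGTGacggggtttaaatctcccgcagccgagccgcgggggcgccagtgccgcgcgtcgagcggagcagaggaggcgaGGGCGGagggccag
Sirt4, chr5:115484248-115484547, minus strand: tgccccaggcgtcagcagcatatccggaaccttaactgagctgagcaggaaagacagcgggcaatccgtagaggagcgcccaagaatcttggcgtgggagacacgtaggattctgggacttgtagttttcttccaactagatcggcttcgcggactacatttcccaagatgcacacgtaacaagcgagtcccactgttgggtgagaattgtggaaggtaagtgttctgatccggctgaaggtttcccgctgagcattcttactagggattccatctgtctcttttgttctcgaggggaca
The Sirt1 window held 2 E-boxes, which begin 115 and 43 bases before the start, and 7 GC boxes, of which 2 overlap each other. Sirt1 was the only gene with an E-box among the 9 whose promoter was matched (12 windows, as Sirt3, Sirt6 and Nmnat1 have 2 starts); 7.15% of all 32851 promoters of this length hold CACGTG. A GC box was found in 8 of the 9, and in 35.7% of all promoters. The Sirt4 window held neither motif, and its GC content was 52.0% against 79.0% for Sirt1 and a median of 52.7% over all promoters. A CCAAT box (CCAAT or ATTGG) was found in 4 of the 9, Sirt2, Sirt3, Sirt5 and Nmnat1, and in 37.4% of all promoters. None held TATAAA or its reverse complement TTTATA, as did 13.6% of all promoters. These are matches of letters, and binding was not measured. Ccar2 was not matched.

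Among the nuclear sirtuins, Sirt6, a deacetylase of histone H3 that acts in DNA repair and in the control of glycolytic genes, had the largest positive difference of all 10 genes. It read 6.66, 6.43 and 6.71 in controls, against 6.69, 6.79 and 7.07 with Sirt1 deficiency. The second and the third Sirt1-deficient pancreas were above all controls and the first lay below the highest control. The difference was 0.25 (95% interval -0.05 to 0.55, p = 0.0926 from limma; exact permutation p = 0.2), which corresponds to 1.19-fold with an upper end at 1.47-fold. With arrays left out the difference ranged from 0.14 (without the Sirt1-deficient pancreas 3) to 0.33 (without the Sirt1-deficient pancreas 1) and never passed, and without the control pancreas 2 it was 0.16. In the alternatives with all arrays, its limma p ranged from 0.0195 (first principal component as covariate) to 0.207 (array weights). After a second quantile normalization the limma p was 0.042. A further cluster, assigned to Sirt6 and to 4 predicted genes together and therefore not counted for Sirt6, differed by -0.010 (standard error 0.11). Sirt7, a nucleolar deacetylase linked to ribosomal RNA synthesis, read 5.78, 5.65 and 5.76 in controls, against 5.58, 5.83 and 5.68 with Sirt1 deficiency. The Sirt1-deficient values enclosed those of the controls, and the difference was -0.032 (95% interval -0.28 to 0.22, exact permutation p = 0.8).

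Sirt2, which deacetylates tubulin among other proteins, read 9.51, 9.38 and 9.62 in controls, against 9.64, 9.62 and 9.41 with Sirt1 deficiency. Both groups covered nearly the same range. The difference was 0.052 (95% interval -0.21 to 0.31, exact permutation p = 0.5), so that the upper end of the interval was 1.24-fold.

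Of the mitochondrial sirtuins, Sirt3 is the main deacetylase, Sirt4 acts on amino acid and fatty acid use, including inhibition of glutamate dehydrogenase, and Sirt5 removes succinyl, malonyl and glutaryl groups. Sirt3 read 6.12, 6.11 and 6.12 in controls, against 6.00, 6.23 and 6.02 with Sirt1 deficiency. The controls lay close together inside the range of the other group, and the difference was -0.034 (95% interval -0.28 to 0.21, exact permutation p = 0.7).
Sirt4 had the largest difference of the 10 genes. It read 4.21, 4.56 and 4.59 in controls, against 4.12, 4.21 and 4.005 with Sirt1 deficiency. The second and the third control lay above all Sirt1-deficient pancreata, while the first control read 4.2143 and the second Sirt1-deficient pancreas 4.2148. The difference was -0.34 (standard error 0.13, 95% interval -0.63 to -0.048, p = 0.0268 and adjusted p = 0.676 from limma; exact permutation p = 0.2), and 3.96% of all genes had a larger t statistic in size. Without the control pancreas 1 it was -0.46 and passed, and without the control pancreas 3 it was -0.27 and did not pass. Sirt4 was also the 1 member below 4.66, the 95th percentile of the mean levels of 1105 olfactory receptor genes, which are hardly expressed in pancreas, so that its cluster lay in the range of background.
Sirt5 read 5.87, 5.82 and 5.76 in controls, against 6.03, 6.13 and 5.87 with Sirt1 deficiency. The first and second Sirt1-deficient pancreata were above all controls, and the third was within 0.01 of the highest. The difference was 0.19 (95% interval -0.059 to 0.44, p = 0.12 from limma; exact permutation p = 0.2), with an upper end at 1.35-fold. With arrays left out it ranged from 0.13 (without the Sirt1-deficient pancreas 2) to 0.26 (without the Sirt1-deficient pancreas 3) and never passed.

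**Figure D2:**
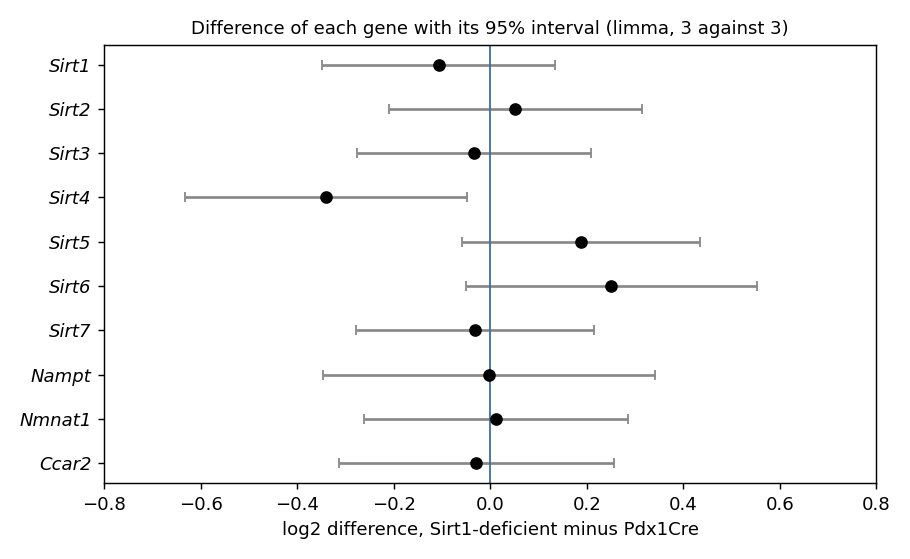
Log2 difference between Sirt1-deficient and Pdx1Cre pancreata (horizontal axis) for each gene, with the 95% interval from limma (3 arrays per group, not adjusted for the number of genes). The interval of Sirt4 lies below 0 and the other 9 include it; the highest upper end is that of Sirt6, at 0.55.

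Nampt, the rate-limiting enzyme of NAD salvage from nicotinamide, read 6.08, 5.95 and 6.21 in controls, against 5.96, 5.87 and 6.41 with Sirt1 deficiency. The third Sirt1-deficient pancreas was the highest of the 6 and the second the lowest. The difference was -0.0021 (95% interval -0.35 to 0.34, exact permutation p = 1), or between 0.79-fold and 1.27-fold. Nampt had the widest interval of the 10 genes, and its difference was -0.17 without the Sirt1-deficient pancreas 3 and 0.10 without the Sirt1-deficient pancreas 2. Nmnat1, the nuclear enzyme that makes NAD+ from the mononucleotide, read 4.96, 5.02 and 5.32 in controls, against 5.15, 5.06 and 5.12 with Sirt1 deficiency. The Sirt1-deficient values lay inside the range of the controls, and the difference was 0.012 (95% interval -0.26 to 0.29, exact permutation p = 1). Ccar2, also called DBC1, which binds the catalytic domain of SIRT1 and inhibits it, read 6.28, 5.93 and 6.18 in controls, against 5.95, 6.16 and 6.19 with Sirt1 deficiency. Here too the Sirt1-deficient values lay inside the range of the controls, and the difference was -0.029 (95% interval -0.31 to 0.26, exact permutation p = 0.9).

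The third Sirt1-deficient pancreas, which had the highest Nampt and Sirt6 values, also had the highest summed level of lymphocyte markers. That sum was highest through Jchain and Ighm, and most of the other lymphocyte markers were not highest in this pancreas. Jchain, a component of secreted antibodies, read 5.86 there and between 2.90 and 3.73 on the other arrays, and Ighm, the heavy chain of IgM, read 7.49 there and between 6.16 and 6.35 elsewhere. Ptprc (4.74) and Ms4a1 (3.26) were also highest in this pancreas. Cd3d, Cd3e, Cd3g, Cd2, Cd79a and Cd79b were not, and Cd3g, at 3.15, was lowest there. Of 10 lymphocyte markers 0 passed, also at p under 0.05, and their summed log2 levels were 42.0 to 43.4 in the control and 41.7 to 46.7 in the Sirt1-deficient pancreata. For 10 macrophage markers, of which 0 passed, these sums were 57.2 to 58.5 and 55.6 to 60.1. No marker read 0, and 8 of the 10 lymphocyte markers lay below the background limit of 4.66. The part of such cells in the values of Nampt and Sirt6 was not tested.
The tissue itself matched its label, with the acinar protease genes Cela3b between 13.53 and 13.70 and Prss2 between 13.14 and 13.28 on all arrays. Over all genes, 0.739% were higher and 0.888% lower at p under 0.01, and 2.89% higher and 3.76% lower at p under 0.05. Of 12 acinar markers 0 passed, and 1 was higher at p under 0.05, with a median of 0.013. Of 13 islet markers 2 were lower, the hormone gene Ppy and the glucose transporter gene Slc2a2 (Glut2), with a median of -0.21. At p under 0.05 there were 3 lower, with the hormone gene Gcg (-0.53), and 0 higher. Of the 13 differences 10 were negative and 3 positive, those of Ins2 (0.060), Pdx1 (0.063) and Chgb (0.033). The summed log2 levels of the islet markers were 91.7 to 96.6 in the control and 90.5 to 92.7 in the Sirt1-deficient pancreata. Of 8 duct markers Ambp was lower, and at p under 0.05 1 was higher and 1 lower. Of 8 endothelial markers Emcn was higher, and 3 were at p under 0.05, with a median of 0.10. Of 7 adipocyte and 8 fibroblast markers 0 passed, and at p under 0.05 there were 0 and 1. All 8 fibroblast differences were negative, with a median of -0.17, and 12187 of the 22180 differences over all genes were negative. The summed log2 levels of the fibroblast markers were 55.6 to 56.0 in the control and 53.7 to 55.7 in the Sirt1-deficient pancreata. Of the latter the third was highest and lay in the range of the controls.

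Beyond the 10 genes, 7 lists of genes around SIRT1 and NAD held 120 measured genes, of which 1 was higher and 0 were lower at an unadjusted p under 0.01. At p under 0.05 there were 3 higher and 5 lower, where 2.89% and 3.76% of all genes were. Groups without overlap, as given below for single genes, were found for 11.7% of all genes. The 1 gene was Nnt, a proton-driven transhydrogenase of the inner mitochondrial membrane that passes hydride from NADH to NADP+. Nnt read 7.50, 7.33 and 7.68 in controls, against 8.04, 8.01 and 8.09 with Sirt1 deficiency. All Sirt1-deficient pancreata were above all controls and lay close together. The difference was 0.55 (standard error 0.12, 95% interval 0.28 to 0.81, p = 0.0011 and adjusted p = 0.299 from limma; exact permutation p = 0.1, the smallest possible), or 1.46-fold. Whichever array was left out, Nnt passed, with differences between 0.46 and 0.64. The C57BL/6J strain is known to carry a deletion within Nnt that many other strains lack. The cluster gives 1 level for the whole gene, the Nnt alleles of these mice were not read here, and genotype and strain background cannot be told apart in this comparison.

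Of the other 23 genes of NAD synthesis and salvage none passed. The list had a median of -0.037 and 10 of its 24 genes lay below the background limit. Nmnat2 and Nmnat3, the cytosolic and mitochondrial relatives of Nmnat1, differed by -0.0017 (95% interval -0.31 to 0.31) and -0.00074 (95% interval -0.26 to 0.26). Of the enzymes that enter NAD synthesis from other precursors, Naprt (nicotinic acid) differed by -0.064 (95% interval -0.34 to 0.21), Nmrk1 (nicotinamide riboside) by 0.038 (95% interval -0.33 to 0.40) and Qprt (tryptophan) by -0.17 (95% interval -0.51 to 0.16). None of these intervals excluded 0. Slc5a8, a transporter of monocarboxylates and nicotinate, differed by -0.32 (95% interval -0.57 to -0.080), with no overlap of the groups, and did not pass. These 6 genes were named after their values were seen.

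Of 28 measured NAD consumers and nicotinamide-clearing enzymes 0 passed and 2 were lower at p under 0.05, with a median of -0.015. At that threshold 3.76% of all genes were lower. Enpp3, an ectoenzyme that hydrolyses nucleotides, had the smallest p of the list. It read 6.02, 5.59 and 5.59 in controls, against 5.12, 4.85 and 5.63 with Sirt1 deficiency. The third Sirt1-deficient pancreas lay among the controls and the others below them, and the difference was -0.54 (95% interval -0.99 to -0.086, limma p = 0.0245, exact permutation p = 0.3). Without that pancreas it was -0.75 and passed, and without the Sirt1-deficient pancreas 2 it was -0.36 and did not. Parp1, the main DNA damage-activated consumer of nuclear NAD+, differed by -0.047 (95% interval -0.34 to 0.24), and its relative Parp2 by -0.014 (95% interval -0.39 to 0.37). These 2 Parp genes were named after their values were seen.

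Of 18 regulators of SIRT1 0 passed and 2 did at p under 0.05, where 6.66% of all genes did, with a median of -0.074. Mlxipl, which encodes the glucose-responsive factor ChREBP, a protein known to repress Sirt1 in mouse tissues, had the smallest p. It read 5.46, 5.22 and 5.59 in controls, against 5.68, 5.71 and 5.77 with Sirt1 deficiency, so that the groups did not overlap. The difference was 0.29 (95% interval 0.023 to 0.57, p = 0.0361 and adjusted p = 0.713 from limma; exact permutation p = 0.1), and 0.19 without the control pancreas 2. Rps19bp1, also called AROS, which activates SIRT1 in human cells, read 6.72, 6.71 and 6.50 in controls, against 6.12, 6.60 and 6.21 with Sirt1 deficiency, a difference of -0.33 (exact permutation p = 0.2), and was named after its values were seen. Its second Sirt1-deficient value lay above the lowest control, and without that pancreas the difference was -0.47 and passed, while it was -0.24 without the Sirt1-deficient pancreas 1.

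Of the other class of deacetylases, the 11 zinc-dependent histone deacetylases, 0 passed and 1 was higher at p under 0.05, with a median of -0.0026. Over all genes, 2.89% were higher at p under 0.05. Hdac5, a class IIa enzyme that shuttles between nucleus and cytoplasm, came nearest. It read 6.78, 6.81 and 6.56 in controls, against 6.97, 7.10 and 7.14 with Sirt1 deficiency. The groups did not overlap, and the difference was 0.36 (95% interval 0.10 to 0.61, limma p = 0.0116, exact permutation p = 0.1). Hdac5 passed with an intensity trend and robust moderation, with array weights and with dim genes left out, and in no other alternative at p under 0.01. Of 9 acetyltransferases, which oppose the deacetylases, 0 passed, also at p under 0.05, with a median of 0.035. The smallest p there was that of Kat8 (-0.14, 95% interval -0.45 to 0.17, exact permutation p = 0.4).

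Of 16 mitochondrial proteins known as substrates of sirtuins 0 passed, also at p under 0.05, with a median of -0.035 and a range of -0.17 to 0.079. Idh2, the mitochondrial NADP+ isocitrate dehydrogenase that SIRT3 activates, had the smallest p. It read 10.29, 10.16 and 10.17 in controls, against 9.95, 9.998 and 10.16 with Sirt1 deficiency. The groups did not overlap, by a margin under 0.01, and the difference was -0.17 (95% interval -0.41 to 0.073, exact permutation p = 0.1). These are transcript levels, and acetylation was not measured on the arrays. Of 14 clock genes, whose activators drive Nampt in mouse liver, 0 passed and 1 was lower at p under 0.05, with a median of -0.057. Over all genes, 3.76% were lower at p under 0.05. Cry1, a repressor of the clock, read 5.81, 5.68 and 6.34 in controls, against 5.59, 5.62 and 5.44 with Sirt1 deficiency. The groups did not overlap, and the difference was -0.40 (95% interval -0.77 to -0.021, limma p = 0.0407, exact permutation p = 0.1). The third control was the highest by far, and without it the difference was -0.20.

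**Figure D3:**
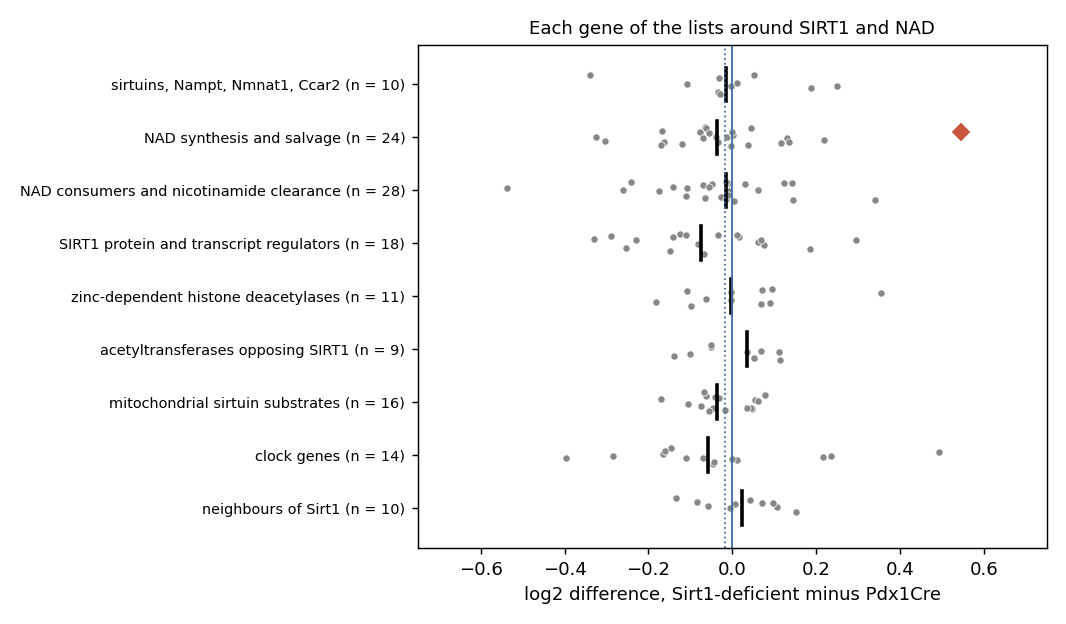
Log2 difference between Sirt1-deficient and Pdx1Cre pancreata (horizontal axis) of the 10 genes, of every measured gene of each list and of the neighbours of Sirt1 (points, spread vertically at random), with the list's median (black bar) and the median of all genes (dotted line). Nnt, the diamond at 0.55, is the 1 gene with an unadjusted p under 0.01 from limma.

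**Figure D4:**
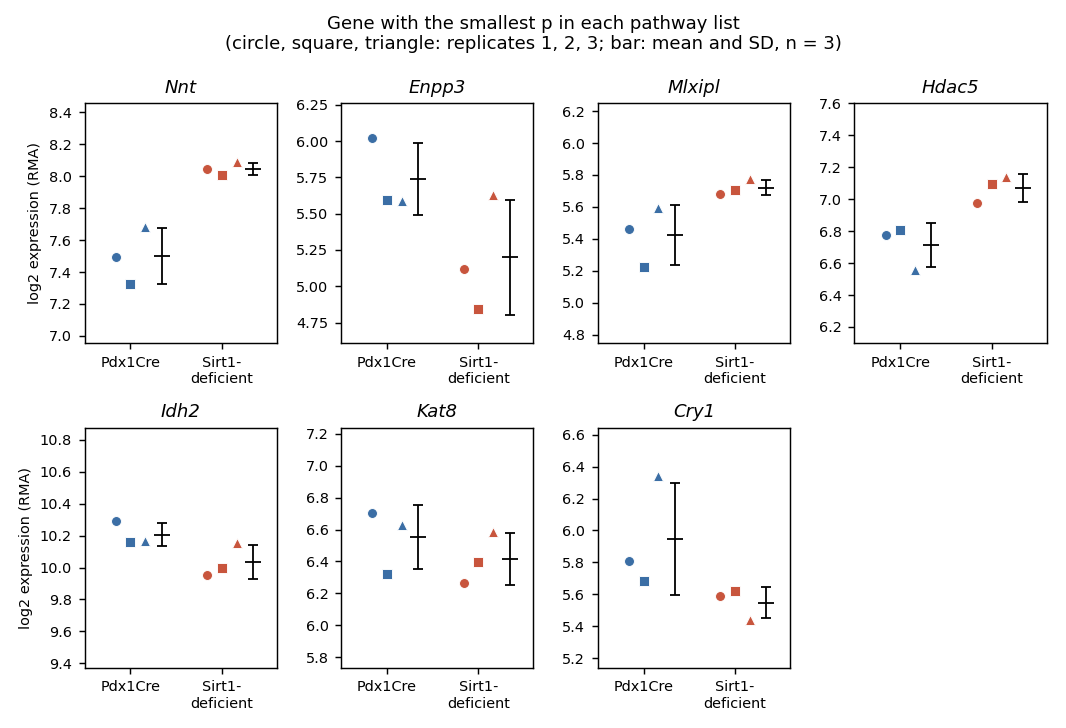
Log2 expression (vertical axes, RMA values) of the gene with the smallest p in each of the 7 lists, 1 point per array, with the group mean and SD (n = 3). All Sirt1-deficient Nnt values, from 8.01 to 8.09, are above all Pdx1Cre values, and for Enpp3 and Kat8 the groups overlap.

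MicroRNAs are a further layer of control of Sirt1, and several have been reported to target it in human or rodent cells. Of 15 such precursor genes 13 were measured and 0 passed, with a median of -0.097, 10 negative and 3 positive differences, and 10 of the 13 below the background limit. This list was added after the files were seen. At an unadjusted p under 0.05, where 6.66% of all genes passed, there were 2. They were Mir217, which is enriched in pancreas, and Mir34a, a p53 target. Their mature sequences follow from RefSeq (GRCm38.p6), with the seed (bases 2 to 8) in capitals, since the seed sets which transcripts each can pair with; the seeds differ.
mmu-miR-217-5p: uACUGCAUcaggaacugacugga
mmu-miR-34a-5p: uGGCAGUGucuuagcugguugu
Mir217 read 6.60, 5.72 and 6.23 in controls, against 5.23, 6.09 and 5.08 with Sirt1 deficiency. The second Sirt1-deficient pancreas lay among the controls and the others below them. The difference was -0.72 (95% interval -1.35 to -0.090, limma p = 0.0294, exact permutation p = 0.2). It was -1.03 and passed without the second Sirt1-deficient pancreas, and -0.51 without the first control. Mir34a read 3.62, 3.80 and 3.26 in controls, against 3.02, 3.16 and 3.37 with Sirt1 deficiency, all below the background limit. The difference was -0.37 (95% interval -0.73 to -0.020, exact permutation p = 0.2), and the groups overlapped. It was -0.52 and passed without the third control, and -0.25 without the second. The probes read the precursor genes, so that these values are not levels of the mature miRNAs.

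The genes that neighbour Sirt1 were listed because the floxed allele was brought in from another stock. Of the 5 measured genes on either side (assembly GRCm38.p6) 0 passed, also at p under 0.05, with a median of 0.024 and differences between -0.13 and 0.15. The adjacent coding genes were Herc4, a ubiquitin ligase, at 0.097 (95% interval -0.17 to 0.37) and Dnajc12, a co-chaperone, at -0.0041 (95% interval -0.29 to 0.28). The smallest p was that of the noncoding gene 1110002J07Rik (0.213). The genes whose values ran most like those of Sirt1 over the 6 arrays were Abca8a, a lipid transporter gene (Pearson r = 0.990), Eral1, a GTPase of mitochondrial ribosome assembly (0.989), and Rbm26, an RNA-binding protein gene (0.987). They were picked from 11703 genes, those above the background limit without predicted, RIKEN, LOC, microRNA, other small RNA, olfactory and vomeronasal names, of which 189 had r above 0.9 with Sirt1. All 6 points share the arrays, and the correlations are descriptions only.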

How the data were processed

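Whole-pancreas RNA of 3 Pdx1Cre and 3 Pdx1Cre;Sirt1ex4F/F mice was measured, 1 array per mouse, and groups were taken from the genotype labels. The deposited values are log2 expression values, made by the authors with the oligo package and Robust Multi-array Average (RMA: background correction, quantile normalization, summary per transcript cluster); for versions and genome build, the sources used here give nothing. Of 41345 clusters, 23521 had 1 gene symbol in the platform annotation, 1820 several and 16004 none. The first gave 22180 genes, each read by its cluster with the highest mean. The test was limma 3.58.1 under R 4.3.3 (lmFit and eBayes with no covariate), and genes with an unadjusted p under 0.01, the threshold of the study, passed. Adjusted p-values (Benjamini-Hochberg) cover all genes tested. With 3 against 3 arrays, the smallest exact permutation p is 0.1. The number of arrays limits the precision. The steps were tested on simulated data.

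The members and lists were chosen with earlier results of these data known, from general knowledge, and the list of miRNAs was added after the files were seen. By a set rule, named genes were the 10 members, up to 4 passing genes of each list or else the gene with the smallest p, and the 3 genes most like Sirt1. Other genes were named after their values were seen. A member of a list was measured where a cluster carried its symbol alone; the others were not analysed here. Correlations of the deviations of arrays with the same replicate number were -0.11, 0.16 and 0.16, so the numbers were not taken to pair the mice. As alternatives, arrays were centred on their medians, normalized by quantiles again or weighted, dim genes were left out, and the fit was given an intensity trend and robust moderation, a replicate block or the first principal component; further ones were the mean of a gene's clusters, protein-coding genes only, other thresholds and each array left out. The correlation between any 2 arrays was 0.974 to 0.984, and array medians were 4.48 to 4.57.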

Additional observations from a re-analysis of the deposited data

How the results depend on the processing

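The count of 0 members passing was the same in all alternatives at p under 0.01 except without the control pancreas 1, where Sirt4 passed, so that the count ranged from 0 to 1 over the arrays left out; it was 1 at p under 0.05 and 0 after adjustment. Of 149 values of the 10 members under the alternatives, 134 kept their direction and their side of the threshold, 1 newly passed and 14 changed sign. The sign of Nampt was positive after a second quantile normalization (0.0063) and with the first principal component as covariate (0.018), and ranged from -0.17 to 0.10 with arrays left out. Nmnat1 was -0.018 with array weights, and from -0.059 to 0.12 with arrays left out. With arrays left out Sirt2 ranged from -0.0083 to 0.13, Sirt3 from -0.11 to 0.010, Sirt7 from -0.097 to 0.026 and Ccar2 from -0.13 to 0.045. The cause was not tested. The signs of Sirt1, Sirt5 and Sirt6 were the same in all alternatives run. That of Sirt4 was the same in all that held it, as Sirt4 was absent where dim genes were left out. Over all genes, 361 passed, and 3 did after adjustment and 1477 at p under 0.05. Of the pathway lists 1 gene passed, Nnt, which passed in every alternative at p under 0.01 (p between 0.000253 and 0.00464). The count was 3 without dim genes (Nnt, Hdac5 and Slc5a8), 2 with an intensity trend and robust moderation (Nnt and Hdac5), 3 with array weights (Nnt, Hdac5 and Enpp3) and 2 with the first principal component (Nnt and Parp12). It was 0 after adjustment and 8 at p under 0.05, and 1 to 2 with arrays left out, Rps19bp1 being added without the Sirt1-deficient pancreas 2 and Enpp3 without the Sirt1-deficient pancreas 3. No neighbour of Sirt1 passed in any alternative, also at an unadjusted p under 0.05. The replicate block, used although the numbers were not taken to pair the mice, gave 0 members, 1 gene of the lists (Nnt) and 373 genes in all. Whether the mice were paired is not stated in the labels. The deviations of arrays of the same number did not all correlate best with each other. The single exon 4 of Sirt1 could not be read, as 1 value stands for all probes of a gene.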
